A study of Mus musculus with 64 samples.

Results

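SOX2 binding was compared between 2 kinds of mouse culture that had passed through the same differentiation steps. They differed in their source of SOX2 and, as the paper reports, in its level, high in SOX2-ON cells and low in CEpiLCs. The comparison used 6 SOX2 chromatin immunoprecipitation (ChIP-seq) libraries, 3 from SOX2-ON cells and 3 from CEpiLCs, chosen by genotype and treatment labels from the 60 libraries with a peak list and the 64 samples of the series. CEpiLCs (caudal epiblast-like cells) were wild-type HM1 (129) cells grown for 72 h, first with 10 ng/ml bFGF and 5 µM LGK974, an inhibitor of WNT secretion, and then with CHIR99021, an activator of WNT signalling, added for the last day. SOX2-ON cells were SOX2-TetON cells (genotype Sox2-/-, also of HM1 origin) taken through those steps with 1 µg/ml doxycycline throughout. In this line a doxycycline-inducible Sox2 cDNA had been placed at the HPRT locus before the endogenous gene was ablated, so the design leaves the transgene as the source of SOX2. The wild-type cells received no doxycycline, so SOX2 source and level, cell line, editing and the drug cannot be told apart in this comparison. The labels name each library a biological replicate. As further values, 3 SOX2 libraries from naive embryonic stem cells (ESCs, wild type) and 3 from SOX2-OFF cells (the SOX2-TetON line with doxycycline withdrawn) were used, as were libraries for beta-catenin, LEF1, TCF7L1 and TCF7L2 in the same 4 conditions. SOX2-OFF cells took the same course of bFGF, LGK974 and CHIR99021 as SOX2-ON cells. Naive ESCs were instead grown for 72 h in 2i medium (CHIR99021 and PD0325901), so they also differed from the other conditions in medium.

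SOX2 is an HMG-box transcription factor that binds short sequences related to CATTGT and CTTTGT and bends DNA. In pluripotent cells it acts with OCT4 at enhancers of pluripotency genes, and in the early embryo it persists at a lower level in the caudal epiblast and later marks neural progenitors. WNT signalling stabilises beta-catenin, which reaches DNA through the TCF/LEF family proteins LEF1, TCF7L1 and TCF7L2.

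The positions that set the 2 conditions apart are shown first. A peak is a stretch of genome where the peak caller found more reads than in its local background, its fold is the deposited ratio to that background, and its summit is its highest point. Each library was cut to its 20000 strongest peaks by deposited −log10 p and overlapping peaks were joined into 61289 sites. A site was SOX2-ON-only when all 3 SOX2-ON and none of the CEpiLC libraries held it, and CEpiLC-only in the reverse case. The sequences below are 121 bases of the plus strand of GRCm38 (mm10) centred on the summit, with every CATTGT or CTTTGT, on either strand, in capitals. The first 6 are the 3 best-ranked sites of each kind that had no peak at all in the full lists of the other condition.
Plxnd1 SOX2-ON-only: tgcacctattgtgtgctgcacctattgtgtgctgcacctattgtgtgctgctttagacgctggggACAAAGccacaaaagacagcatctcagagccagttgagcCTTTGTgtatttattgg
Kti12 SOX2-ON-only: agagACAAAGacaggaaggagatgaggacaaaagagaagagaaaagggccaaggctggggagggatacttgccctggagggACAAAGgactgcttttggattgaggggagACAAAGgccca
Zdhhc2 SOX2-ON-only: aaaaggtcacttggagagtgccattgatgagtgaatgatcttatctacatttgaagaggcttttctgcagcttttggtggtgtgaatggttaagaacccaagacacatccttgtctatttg
Rbfox3 CEpiLC-only: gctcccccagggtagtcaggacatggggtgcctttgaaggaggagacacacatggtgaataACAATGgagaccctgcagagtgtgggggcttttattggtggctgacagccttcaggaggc
Adgrl2 CEpiLC-only: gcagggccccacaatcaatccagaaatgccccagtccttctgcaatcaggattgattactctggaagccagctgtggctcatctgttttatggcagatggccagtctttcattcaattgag
Appl1 CEpiLC-only: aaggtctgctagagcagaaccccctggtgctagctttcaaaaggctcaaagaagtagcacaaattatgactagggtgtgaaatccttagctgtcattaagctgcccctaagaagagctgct

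The best-ranked SOX2-ON-only site (chr6:116012125-116012245) was intergenic, 17180 bp from the start of Plxnd1, which encodes a semaphorin receptor. Its fold was 72.9, 67.3 and 70.0 in SOX2-ON replicates 1 to 3, where it ranked 2, 6 and 9. The 121 bases shown hold 2 SOX matches, and 3 lay within 100 bp of the summit. The next site (chr4:108843303-108843423) lay in an intron 4422 bp from the start of Kti12, with folds of 37.7, 36.1 and 51.5 and 4 SOX matches within 100 bp. The third (chr8:40376615-40376735) lay in an intron 47140 bp from the start of Zdhhc2, with folds of 40.4, 55.1 and 60.9 and no SOX match within 100 bp, so a strong peak did not require these letters. None of the 3 SOX2-OFF libraries held any of these positions among its 20000 strongest SOX2 peaks, and 1, 3 and 2 of the 3 naive ESC libraries did. All later counts of naive ESC or SOX2-OFF libraries with a peak at a site use these strongest peaks unless the full lists are named.

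In the reverse direction the best-ranked CEpiLC-only site (chr11:118695287-118695407) lay in an intron, 65694 bp from the start of Rbfox3, which encodes a neuronal splicing regulator. Its fold was 42.7, 38.9 and 43.4 in the 3 CEpiLC libraries and it held 1 SOX match. The other two, an intergenic site 471733 bp from the start of Adgrl2 (chr3:149462228-149462348, folds 37.0, 33.5 and 36.5) and an intronic site 14599 bp from the start of Appl1 (chr14:26956573-26956693, folds 28.0, 40.1 and 48.3), held none within 100 bp. The Appl1 site had a peak in 3 of 3 SOX2-OFF libraries, the Adgrl2 site in 1 and the Rbfox3 site in 0. The Plxnd1 and Rbfox3 sites lie on chromosomes 6 and 11, whose share of peaks differed between the cell lines, as given below.

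A second set shows loci of developmental genes. Klf2 and Nr5a2 are transcription factor genes of naive pluripotency, Hoxb1 and Hoxb9 are Hox genes, Meis3 encodes a Hox cofactor and Nodal an epiblast ligand. Hoxb1 was taken for its graded difference, given below. The first Klf2 line and the Hoxb1 line are summits of sites with a peak in all 6 full lists, the others are class sites.
Klf2, site 2798 bp from the start: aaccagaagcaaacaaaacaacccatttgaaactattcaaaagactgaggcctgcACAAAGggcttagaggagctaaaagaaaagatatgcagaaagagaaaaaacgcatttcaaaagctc
Klf2, SOX2-ON-only site: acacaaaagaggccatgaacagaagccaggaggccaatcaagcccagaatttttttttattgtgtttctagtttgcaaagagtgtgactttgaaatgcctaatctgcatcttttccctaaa
Nr5a2, SOX2-ON-only site: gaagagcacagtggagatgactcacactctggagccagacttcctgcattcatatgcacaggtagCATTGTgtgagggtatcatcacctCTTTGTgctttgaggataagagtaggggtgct
Hoxb1, site 182 bp from the start: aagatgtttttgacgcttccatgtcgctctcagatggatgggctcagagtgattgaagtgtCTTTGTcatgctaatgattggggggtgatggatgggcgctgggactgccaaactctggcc
Hoxb9, CEpiLC-only site: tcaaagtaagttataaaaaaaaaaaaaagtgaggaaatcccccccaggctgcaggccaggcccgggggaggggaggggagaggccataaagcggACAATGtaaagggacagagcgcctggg
Meis3, CEpiLC-only site: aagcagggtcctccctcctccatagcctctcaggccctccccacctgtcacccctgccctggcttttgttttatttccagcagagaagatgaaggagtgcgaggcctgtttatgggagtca
Nodal, CEpiLC-only site: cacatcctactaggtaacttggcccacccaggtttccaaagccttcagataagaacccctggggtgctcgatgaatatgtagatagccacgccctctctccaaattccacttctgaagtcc
They lie in order at chr8:72316175-72316295, chr8:72334413-72334533, chr1:137390455-137390575, chr11:96365510-96365630, chr11:96272054-96272174, chr7:16174128-16174248 and chr10:61416009-61416129. By the GENCODE M21 annotation the Hoxb9 window is intronic and the other 6 are intergenic.

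Peak lists varied in length both within and between the 2 conditions. The SOX2-ON libraries held 93312, 105448 and 232446 peaks and the CEpiLC libraries 29298, 104085 and 39683. The geometric means differed 2.66-fold (difference in mean log10 number 0.425, two-sided exact permutation test, p = 0.2, n = 3 libraries each), and the groups overlapped. With 3 libraries against 3 this test cannot give a p below 0.1. The files hold no read counts, so the depth of the libraries is unknown, and lists of equal length were compared from here on. The 20000th peak had a −log10 p of 10.5, 10.6 and 13.9 in SOX2-ON and of 7.53, 9.68 and 8.65 in CEpiLC, so the CEpiLC lists reached weaker peaks. Peaks from bulk chromatin do not tell fewer bound cells from weaker binding in each cell.

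Replicate 1 libraries held strong peaks over exons of single genes, in both conditions at Tfap2c and in CEpiLC at Tcf7l1. The exons of Tfap2c, a trophectoderm and germline gene, had 6 peaks in CEpiLC replicate 1, the strongest of fold 97.4 and first in its list, 1 peak in replicate 2 and none in replicate 3. In SOX2-ON they had 6, 0 and 1. Tcf7l1 had 8 exon peaks of up to fold 72.7 in CEpiLC replicate 1, none in replicate 2 and 1 of fold 3.12 in replicate 3. In SOX2-ON it had 2, 0 and 3, of up to fold 7.23 in replicate 1 and 6.75 in replicate 3, so replicate 1 did not stand apart there. Without replicate 1 in both conditions there were 5010 SOX2-ON-only and 3674 CEpiLC-only sites, since fewer libraries had to hold a site, and the differences given below in SOX share and promoter share were 18.7 and −14.6 percentage points (exact permutation p = 0.333, the smallest that 2 against 2 allows).

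Libraries of one condition shared positions with each other more than with the other condition. The Jaccard index, the shared length of 2 lists over their joint length, averaged 0.307 among SOX2-ON libraries, 0.302 among CEpiLC libraries and 0.150 between them. Each of the 6 libraries had a higher mean index with its own condition (0.280 to 0.317) than with the other (0.134 to 0.171). Within minus between was 0.155 (one-sided exact permutation test, p = 0.1, the smallest this design allows).

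Of the 61289 sites, 3302 (5.39%) were SOX2-ON-only, 2179 (3.56%) were CEpiLC-only and 2659 (4.34%) were held by all 6 libraries. These counts follow from the definition and carry no test. The SOX2-ON-only sites were mostly free of any CEpiLC peak: 2540 of them (76.9%) had none in the 3 full CEpiLC lists and 25 had one in all 3. Of the CEpiLC-only sites 591 (27.1%) had none in the full SOX2-ON lists and 305 (14.0%) had one in all 3, lists that were on average longer. Median folds were 10.3, 10.5 and 11.8 in the 3 SOX2-ON libraries at SOX2-ON-only sites and 6.71, 7.96 and 8.42 in the 3 CEpiLC libraries at CEpiLC-only sites.

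The SOX2-ON-only sites lay far from transcript starts, though 45.0% of them were in introns, against 37.3% of CEpiLC-only sites. Their median distance to the nearest start of a protein-coding transcript was 53083 bp, 51.2% were more than 50 kb away and 2.00% were within 1000 bp. CEpiLC-only sites had a median distance of 12514 bp, and 25.5% of them were within 1000 bp of a start, close to the 21.5% of sites held by all 6 libraries. The whole lists showed the same difference. In the 3 SOX2-ON libraries 13.3%, 10.7% and 14.1% of the 20000 strongest peaks had their summit within 1000 bp of a start, against 27.1%, 23.4% and 30.7% in the CEpiLC libraries. The groups did not overlap, and the mean share was 14.3 percentage points lower in SOX2-ON (12.7% ± 1.79 against 27.1% ± 3.62, SD, n = 3; two-sided exact permutation test, p = 0.1).

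Of the sequence sets searched, the SOX letters differed most between the classes in percentage points, while as a ratio KLF letters differed more (1.36% of SOX2-ON-only and 4.08% of CEpiLC-only sites). At least 1 CATTGT or CTTTGT, on either strand, stood within 100 bp of the summit in 75.8% of SOX2-ON-only sites, 66.0% of the sites held by all 6 libraries and 42.0% of CEpiLC-only sites. In windows of the same length 5 kb to either side of these sites the share was 27.2%. SOX2-ON-only sites held 1.37 matches on average and 14.6% of them held 3 or more. CEpiLC-only sites held 0.492 on average and 0.688% held 3 or more. Among sites farther than 1000 bp from a start the shares were 75.8% of 3236 SOX2-ON-only and 44.3% of 1623 CEpiLC-only sites, and among those within 1000 bp 75.8% of 66 and 35.4% of 556. Among the sites with no peak in the full lists of the other condition they were 77.0% and 41.6%.

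Per library, the 20000 strongest peaks carried a SOX match in 61.4%, 62.2% and 58.3% of cases in SOX2-ON and in 50.5%, 40.6% and 42.5% in CEpiLC. No CEpiLC library reached the lowest SOX2-ON library, and the means differed by 16.1 percentage points (60.7% ± 2.06 against 44.5% ± 5.27, SD, n = 3; two-sided exact permutation test, p = 0.1, adjusted p = 0.188 over the 15 sequence sets searched). When all deposited peaks were used the shares were 40.9% and 38.4%, and their difference was 2.56 percentage points (exact permutation p = 0.7). Those lists held weaker peaks and were also of unequal length, and the effects of both cannot be told apart. The longer form CCTTTGTT, which contains CTTTGT, separated the libraries less, with 8.31%, 8.12% and 7.81% in SOX2-ON and 8.24%, 5.53% and 6.69% in CEpiLC, ranges that overlapped. It was at 10.0% of SOX2-ON-only and 7.89% of CEpiLC-only sites, against 1.07% of windows 5 kb away. The OCT-SOX letters TTGTNATGC, which can share bases with CATTGT, were found at 4.06% of SOX2-ON-only, 3.58% of CEpiLC-only and 6.05% of the sites in all 6 libraries, against 0.522% of windows 5 kb away.

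Other sequences differed by a few points at most. GATA letters (AGATAA) were found in 11.6%, 12% and 10.7% of SOX2-ON peaks and in 8.15%, 8.64% and 7.38% of CEpiLC peaks, a difference of 3.41 points, and KLF letters (GGGCGTGG or GGGTGTGG) in 2.65% ± 0.0477 and 4.30% ± 0.245. T-box (GGTGTG, whose letters overlap one KLF form) and MEIS letters (TGACAG) were lower in every SOX2-ON library than in any CEpiLC library, by 1.73 and 1.46 points. TCF letters (CTTTGAA or CTTTGAT) were at 16.8% of SOX2-ON-only and 16.8% of CEpiLC-only sites, against 8.53% of windows 5 kb away. For each set whose groups did not overlap the two-sided exact permutation p was 0.1 and the adjusted p 0.188, so none passed a threshold of 0.05. CDX letters (TTTATTG or TTTATGG) stood in 6.42% ± 0.115 and 6.63% ± 1.51 (exact permutation p = 0.7, n = 3), and at 8.67% of CEpiLC-only sites against 7.74% of windows 5 kb away. A match is a description of the letters and not evidence that a protein was bound there.

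**Figure D1:**
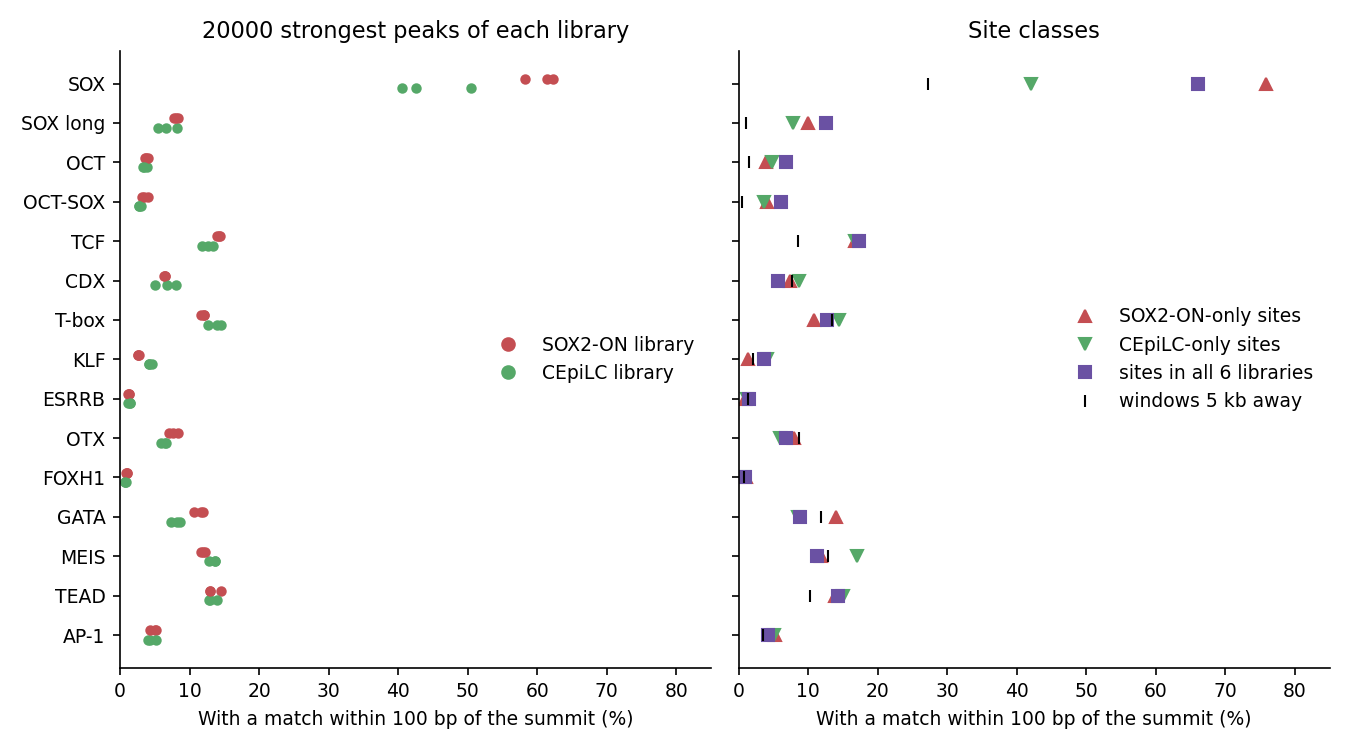
Share of peaks or sites with each sequence within 100 bp of the summit, in percent (horizontal axis), for 15 sequence sets. The left panel has 1 point per library and the right panel 1 marker per site class and for windows 5 kb away. SOX has the widest gap in points: 58.3% to 62.2% in SOX2-ON and 40.6% to 50.5% in CEpiLC libraries, and 75.8% of SOX2-ON-only against 42.0% of CEpiLC-only sites.

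SOX2 libraries of the remaining conditions, which had no part in choosing the sites, covered them to differing extents. In naive ESCs the 20000 strongest peaks covered 21.8%, 32.7% and 29.2% of SOX2-ON-only sites and 17.4%, 24.1% and 24.5% of CEpiLC-only sites. In SOX2-OFF cells they covered 3.21%, 5.66% and 4.72% of SOX2-ON-only sites and 32.4%, 33.5% and 48.8% of CEpiLC-only sites. Here a site counted as covered when a peak spanned at least 10% of it. An index was formed for each library as the log2 odds of covering SOX2-ON-only sites minus that of covering CEpiLC-only sites, with 0.5 added to each count. It was 0.45 ± 0.14 in naive ESCs and −3.73 ± 0.60 in SOX2-OFF cells (SD, n = 3), a difference of 4.18 (two-sided exact permutation test, p = 0.1). With the full lists the naive ESC values were −0.03, 0.16 and −0.02, so their lean toward SOX2-ON-only sites was limited to the strongest peaks, and the SOX2-OFF values were −3.44, −2.51 and −3.54.

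SOX2-OFF cells lacked an intact endogenous Sox2 gene and grew without doxycycline, and the SOX2 antibody still gave peaks at many CEpiLC-only sites. Among the 20000 strongest peaks of each SOX2-OFF library, 786 of the CEpiLC-only sites had a peak in at least 2 of 3 libraries, and 785 (36.0%) had none. A SOX match was present in 35.4% of the former and 46.6% of the latter, against 27.2% of windows 5 kb away. By the same cut 2940 of the SOX2-ON-only sites (89.0%) had no peak in any SOX2-OFF library, and 1381 of the sites held by all 6 libraries (51.9%) had one in all 3. The full SOX2-OFF lists covered more of both classes, with 5.78%, 27.1% and 21.2% of SOX2-ON-only sites and 40.0%, 68.0% and 75.7% of CEpiLC-only sites. CDX letters stood at 5.09% of the 786 and 13.2% of the 785 CEpiLC-only sites. The paper proposes, as probable, that SOX2 protein persisting at a low level once doxycycline was withdrawn gave the signal in SOX2-OFF cells. The source of the signal was not tested here.

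Some SOX2-ON-only sites were also among the 20000 strongest peaks of naive ESCs. In at least 2 of 3 naive ESC libraries 908 of them had such a peak, and 1919 (58.1%) had one in none. How many were shared depended on this cut, since the full naive ESC lists covered 72.0%, 55.3% and 47.4% of SOX2-ON-only sites. The OCT-SOX letters were at 7.93% of the 908 and 2.50% of the 1919 sites, while the SOX share was nearly equal at 76.8% and 75.1%.

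WNT effectors, measured in libraries of their own, moved with the SOX2 sites. Each target's lists were cut to the length of its shortest one, which was 3423 peaks (beta-catenin), 4443 (LEF1), 1628 (TCF7L1) or 4134 (TCF7L2). Beta-catenin peaks covered 18.5%, 17.2% and 13.1% of SOX2-ON-only sites in the 3 SOX2-ON libraries and 0%, 0.0606% and 0.0909% in the 3 CEpiLC libraries, that is 0, 2 and 3 of the 3302 sites. At CEpiLC-only sites the order was reversed: 5.97%, 5.28% and 7.39% in SOX2-ON and 27.4%, 24.6% and 23.6% in CEpiLC. The beta-catenin index was 1.55 ± 0.55 in SOX2-ON and −9.41 ± 1.65 in CEpiLC (SD, n = 3), where the value of the library with 0 sites is set by the added 0.5.

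LEF1 peaks covered 16.4% ± 11.3 of SOX2-ON-only sites in SOX2-ON, with replicate 2 at 29.5% and the others at 10.3% and 9.45%, and 0.262% ± 0.106 in CEpiLC. At CEpiLC-only sites they covered 2.72% ± 0.110 and 21.9% ± 0.608. TCF7L1 covered 4.97% ± 3.02 of SOX2-ON-only sites in SOX2-ON and 1 site in 1 of 3 CEpiLC libraries, and 2.04% ± 1.28 against 10.6% ± 3.41 of CEpiLC-only sites. TCF7L2 at its cut length covered 2.77% ± 0.530 of SOX2-ON-only sites in SOX2-ON and 14.3% ± 1.21 of CEpiLC-only sites in CEpiLC. The index was higher in SOX2-ON than in CEpiLC by 10.96 (beta-catenin), 9.33 (LEF1), 10.37 (TCF7L1) and 7.26 (TCF7L2), with no overlap between groups (each two-sided exact permutation p = 0.1, adjusted p = 0.1 over the 4 targets, the smallest possible). Because the TCF7L1 lists of CEpiLC held 0, 1 and 0 SOX2-ON-only sites, 2 of their 3 index values are set by the added 0.5, and the size of that difference is not a measured one. With full lists the TCF7L1 index was −8.90, −2.76 and −3.51 in CEpiLC, the first again from 0 sites, and 1.11, 2.94 and 2.66 in SOX2-ON. The TCF7L2 index in SOX2-ON was −0.36 ± 0.46 with cut lists and turned to 0.80, 0.89 and 0.41 with full lists, which covered 25.1%, 12.2% and 35.5% of SOX2-ON-only and 16.1%, 6.98% and 29.3% of CEpiLC-only sites.

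In SOX2-OFF cells the index of every target was negative, as in CEpiLC, with beta-catenin at −4.55 ± 0.69, LEF1 at −4.88 ± 0.60, TCF7L1 at −5.31 ± 0.46 and TCF7L2 at −3.71 ± 0.44. In naive ESCs it was 0.08 ± 0.24 for beta-catenin, −0.05 ± 0.24 for TCF7L1, −0.90 ± 1.26 for LEF1 and −1.60 ± 0.56 for TCF7L2. The naive ESC LEF1 values were −2.19, 0.33 and −0.85, and the first rests on only 3 SOX2-ON-only and 10 CEpiLC-only sites. At the sites held by all 6 SOX2 libraries beta-catenin covered 37.1% ± 0.173 in SOX2-ON and 27.7% ± 2.34 in CEpiLC, without overlap, and LEF1 covered 24.1% ± 6.00 and 25.3% ± 1.98 (SD, n = 3).

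**Figure D2:**
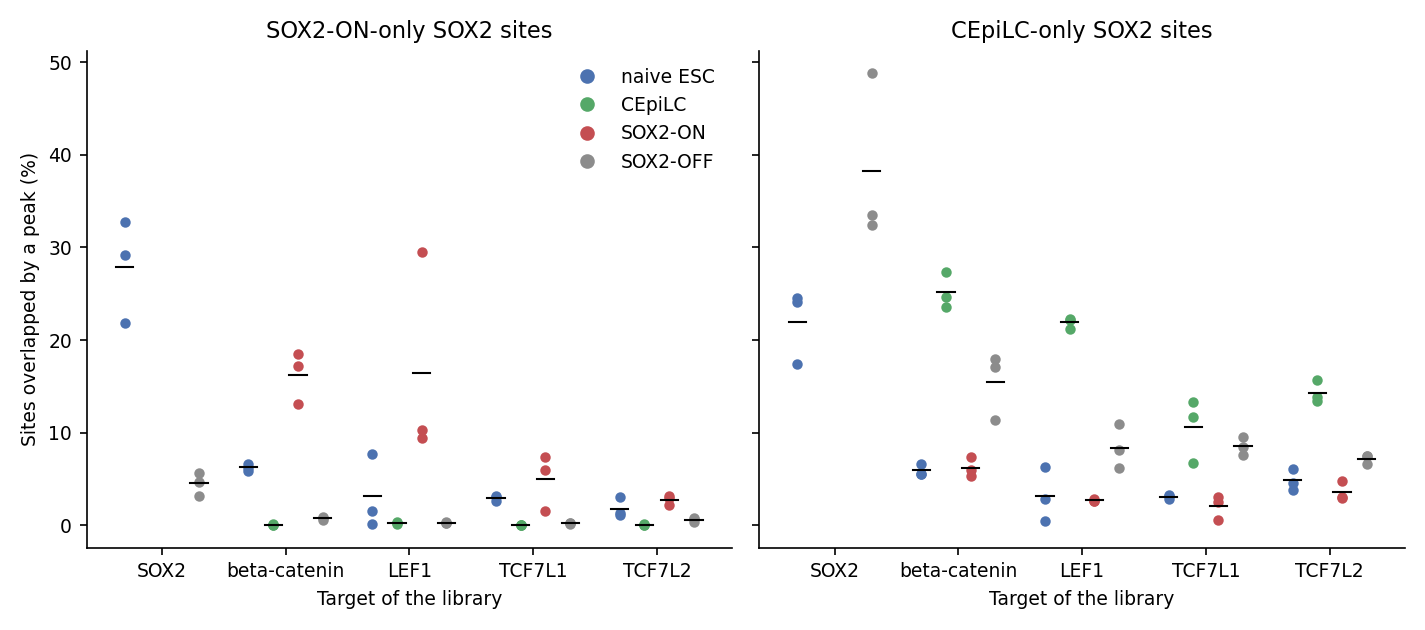
Percent of SOX2-ON-only sites (left) and CEpiLC-only sites (right) overlapped by a peak in each library of the target on the horizontal axis. Points are libraries, bars are means, and the 6 SOX2 libraries that define the sites are left out. Beta-catenin covers 13.1% to 18.5% of SOX2-ON-only sites in SOX2-ON and at most 0.0909% in CEpiLC, and SOX2-OFF SOX2 libraries cover 32.4% to 48.8% of CEpiLC-only sites.

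At genes, Cdx and Hox loci held CEpiLC-only sites and no SOX2-ON-only site. Each site was given to the gene with the nearest start. By that rule 10.8% of 21924 protein-coding genes had at least 1 SOX2-ON-only site and 8.52% had at least 1 CEpiLC-only site, and the counts over the lists are read against these shares. The list of endoderm, trophectoderm and fibroblast genes exceeded both, with 29.4% for each kind, and neural genes had 48.0% for each. A share above that of all genes is therefore not particular to 1 list. Of 28 Cdx and Hox genes, which set the body axis, 11 had a CEpiLC-only site (39.3%) and 0 had a SOX2-ON-only site. Many of them lie on chromosomes 6 and 11, whose share of peaks differed between the cell lines as given below, and of the 13 on other chromosomes 6 had a CEpiLC-only site.

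Cdx2, a homeobox gene that acts before the posterior Hox genes, had 2 CEpiLC-only sites, 136 bp from its start (folds 6.53, 8.41 and 5.97) and 2136 bp from it (8.52, 5.96 and 5.83), the second with no peak in any full SOX2-ON list. An intronic Cdx2 site 2939 bp from the start was held by all 6 libraries, with folds of 45.9, 22.7 and 31.1 in SOX2-ON and 16.2, 29.2 and 34.4 in CEpiLC. Among their 20000 strongest peaks the SOX2-ON libraries held 2, 1 and 4 nearest to Cdx2 and the CEpiLC libraries 6, 8 and 5. At Hoxb9 the CEpiLC libraries held 7, 3 and 7 such peaks and the SOX2-ON libraries 0, 0 and 0. The CEpiLC-only site shown for Hoxb9 had folds of 15.1, 11.7 and 10.3 and the one 150 bp from the start of Hoxb8 had 7.83, 5.48 and 5.77. Hoxb2, Hoxc4 and Hoxc6 had 2 CEpiLC-only sites each. At Hoxc6, on chromosome 15, the counts of peaks were 0, 0 and 0 in SOX2-ON and 4, 5 and 5 in CEpiLC.

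Caudal epiblast genes followed with 9 of 15 carrying a CEpiLC-only site and 4 a SOX2-ON-only site (26.7%). Meis3, which encodes a Hox cofactor, had 1 CEpiLC-only site 1087 bp from its start with folds of 13.3, 17.2 and 12.7 and no peak there in any full SOX2-ON list. The strongest peak nearest to Meis3 had a fold of 3.27, 3.30 and 4.2 in the SOX2-ON libraries, so the groups did not overlap. Rspo3, a secreted amplifier of WNT signalling, had 3 CEpiLC-only sites, the nearest 18680 bp from its start with folds of 14.6, 10.7 and 33.2. Fgf8, a ligand of the primitive streak, had 2 CEpiLC-only sites (folds 11, 11.1 and 35.8 at the stronger) and 1 SOX2-ON-only site 23544 bp from its start (6.68, 16.8 and 10.6). Sp8 and Meis1 each had 2 SOX2-ON-only and 2 CEpiLC-only sites. At Sp8 the CEpiLC-only sites lay 3582 and 3411 bp from the start and the SOX2-ON-only sites 180238 and 79700 bp.

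Of 20 genes of the primitive streak and mesoderm, 9 had a CEpiLC-only site (45.0%) and 2 a SOX2-ON-only site (10.0%). T, which encodes Brachyury, had 1 CEpiLC-only site 25378 bp from its start (folds 6.04, 9.42 and 8.55), found in 3 of 3 SOX2-OFF libraries, and 2 sites held by all 6 libraries. Hes7 and Meox1, genes of somite formation, and Lhx1 had 2 CEpiLC-only sites each and lie on chromosome 11. The Hes7 site 2342 bp from the start had folds of 9.77, 9.11 and 23.6 and was found in 3 of 3 SOX2-OFF libraries. Tbx6, a paraxial mesoderm gene, had no site of either kind. Foxc1 had 2 SOX2-ON-only sites and 1 CEpiLC-only site, the nearest of them 168339 bp away.

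Signalling genes were split. Of 18 genes of the FGF, Nodal and BMP pathways, 6 had a CEpiLC-only site (33.3%) and 3 a SOX2-ON-only site (16.7%). Nodal, a TGF-beta family ligand of the epiblast, had 2 CEpiLC-only sites 1903 and 1246 bp from its start, with folds of 12.7, 11.6 and 17.9 at the stronger, and both were found in 3 of 3 naive ESC and 3 of 3 SOX2-OFF libraries. The SOX2-ON libraries held 0, 0 and 2 of their strongest peaks nearest to Nodal and the CEpiLC libraries 2, 3 and 5, so the groups touched. Etv5, an effector of FGF signalling, had 3 CEpiLC-only sites and 1 SOX2-ON-only site. Fgf15 had 2 CEpiLC-only sites, and Dusp6, an ERK phosphatase, had 1 SOX2-ON-only site. Of 16 genes of the WNT pathway 4 had a SOX2-ON-only site and 4 a CEpiLC-only site (25.0% each). Tcf7l2 had 4 SOX2-ON-only sites and 1 CEpiLC-only site, the strongest 166802 bp from its start with folds of 31.0, 22.9 and 24.9. Tcf7l1 and Nkd1 had 2 SOX2-ON-only sites each and no CEpiLC-only site, and Lef1 had 2 CEpiLC-only sites, 54 and 5312 bp from its start, and no SOX2-ON-only site.

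Pluripotency genes carried sites of both kinds. Of 17 naive pluripotency genes 5 had a SOX2-ON-only site (29.4%) and 3 a CEpiLC-only site (17.6%), and of 11 core and primed genes 3 and 2 had them. Klf5 had 3 SOX2-ON-only sites, between 216722 and 333362 bp from its start, and Nr5a2 had 2, one of them the site shown above with 2 SOX matches and folds of 12, 16 and 21.1. Otx2 had 2 SOX2-ON-only sites and Dnmt3b had 1. Tbx3 had 2 CEpiLC-only sites, one of them with folds of 18.7, 26.9 and 27.2 and found in 3 of 3 SOX2-OFF libraries. Tfcp2l1 had 1 CEpiLC-only site and Esrrb no site of either kind, but 1 site held by all 6 libraries.

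Sox2 itself had 2 CEpiLC-only sites and no SOX2-ON-only site. They lay 15040 and 106442 bp from its start, with folds of 6.49, 8.48 and 7.80 and of 7.0, 8.61 and 6.09. Among the strongest peaks the SOX2-ON libraries held 11, 8 and 8 nearest to Sox2 and the CEpiLC libraries 24, 15 and 13, so the groups did not overlap. The single exon of Sox2 had a peak of fold 4.57, 3.97 and 5.67 in SOX2-ON and 4.42, 3.98 and 5.88 in CEpiLC. The ranges overlapped at this exon, and in SOX2-ON reads of the transgene and of the endogenous gene cannot be told apart.

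Neural genes were the list with the largest share of SOX2-ON-only sites among the 9 lists: 12 of 25 had one (48.0%), and 12 had a CEpiLC-only site (48.0%). Pax3, a neural tube and neural crest gene, had 3 SOX2-ON-only sites in its intron, the strongest with folds of 24.9, 22.7 and 20.3, and 1 CEpiLC-only site. Pou3f2, which encodes a neural POU factor, had 4 SOX2-ON-only sites, all between 345477 and 497896 bp from its start. Nkx6-1 had 3 SOX2-ON-only sites and 1 CEpiLC-only site. Pou3f3 had 3 CEpiLC-only sites within 18747 bp of its start and 1 SOX2-ON-only site 588086 bp away, with folds of 18.3, 31.8 and 20.4. Sox1 had 1 CEpiLC-only site and 2 sites held by all 6 libraries.

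Of 17 genes of endoderm, trophectoderm and fibroblasts, 5 had a SOX2-ON-only site and 5 a CEpiLC-only site (29.4% each). Gata3, a trophectoderm gene, had 4 SOX2-ON-only sites and 1 CEpiLC-only site, all at least 231518 bp from its start. Foxa2, an endoderm gene, had 1 SOX2-ON-only site and Pdgfra, which encodes a growth factor receptor, 1 CEpiLC-only site. The choice of gene mattered: when sites were counted within the gene and 10 kb upstream of it, 15 of 28 Cdx and Hox genes had a CEpiLC-only site, against 6.78% of all genes, and 0 a SOX2-ON-only site, against 6.61%. These spans overlap within Hox clusters, so 1 site could count for several genes, as the Hoxa5 site did for Hoxa3. The Cdx and Hox list held 25 pairs of gene and CEpiLC-only site this way, where nearest starts gave 15. Among neural genes 10 of 25 (40.0%) had a CEpiLC-only site and 1 a SOX2-ON-only site, where nearest starts gave 12 and 12. Among naive pluripotency genes 1 of 17 had a SOX2-ON-only site and 0 a CEpiLC-only site.

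**Figure D3:**
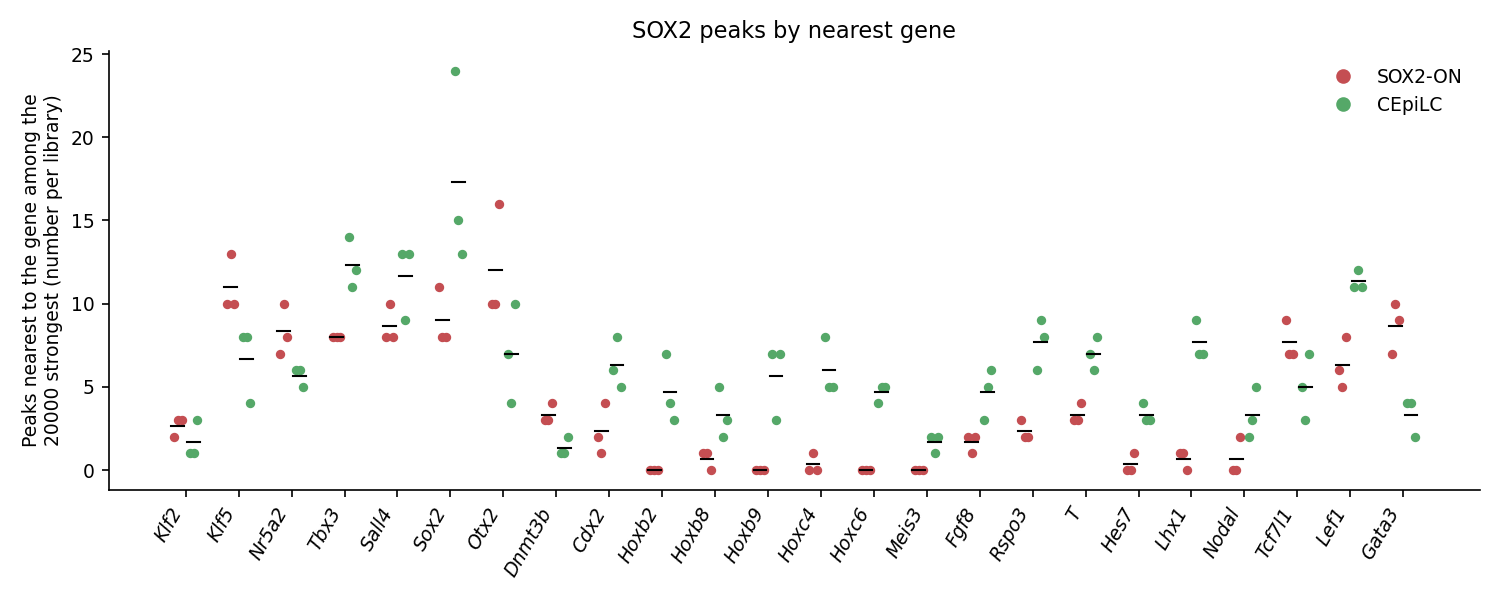
Number of SOX2 peaks nearest to each gene among the 20000 strongest of each library (vertical axis), for genes named in the text (horizontal axis). Points are libraries and bars are means of 3. Hoxb2, Hoxb9, Hoxc6 and Meis3 have no such peak in any SOX2-ON library, and Gata3 has 7, 10 and 9 in SOX2-ON against 4, 4 and 2 in CEpiLC.

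Sites with a peak in all 6 full lists allowed a graded comparison. There were 6883 of them, and the deposited fold of the strongest peak at each was compared on a log2 scale after quantile normalisation (limma, Benjamini-Hochberg over all 6883 sites). Of these, 901 (13.1%) were higher in SOX2-ON and 898 (13.0%) higher in CEpiLC at an adjusted p below 0.05. Median folds at the sites higher in SOX2-ON were 16.9, 16.5 and 20.2 in SOX2-ON and 6.54, 6.71 and 6.61 in CEpiLC. At those higher in CEpiLC they were 6.60, 6.31 and 8.18 against 15.9, 17.4 and 19.7. The log2 difference reached 3.72 in one direction and −3.17 in the other.

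The 3 sites with the smallest adjusted p higher in SOX2-ON were nearest to Gpr149, Grik2 and Sis, and none of these genes was in the lists used here. The Gpr149 and Grik2 sites had no peak in any SOX2-OFF library and one in 3 of 3 naive ESC libraries, and the Sis site the reverse. The intergenic Gpr149 site (chr3:62938481-62939138) had folds of 55.2, 52.6 and 50.3 in SOX2-ON and 5.00, 5.01 and 4.10 in CEpiLC, a log2 difference of 3.72 (SE 0.31, limma adjusted p = 1.66e-10). The Grik2 site (chr10:49416950-49417871), in an intron nearest to this glutamate receptor gene, had 36.5, 43.8 and 44.4 against 4.04, 4.69 and 4.48 (3.41, SE 0.30, limma adjusted p = 5.62e-10). The Sis site (chr3:72867950-72868879) had 31.2, 39.6 and 53.7 against 5.67, 5.47 and 5.32 (3.05, SE 0.31, limma adjusted p = 1.02e-08). At each, every SOX2-ON library lay far above every CEpiLC library.

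In the other direction the 3 sites were nearest to Nkx2-2, a ventral neural gene, Hoxb1 and Tcf7, which encodes a TCF/LEF family protein. The Hoxb1 site (chr11:96364904-96366999, whose summit sequence is shown above with 1 SOX match) had folds of 3.40, 7.45 and 8.10 in SOX2-ON and 34.8, 79.3 and 89.5 in CEpiLC, a log2 difference of −3.17 (SE 0.33, limma adjusted p = 2.19e-08). The Tcf7 site (chr11:52285842-52287458) had 4.67, 6.45 and 6.91 against 30.7, 63.2 and 84.8 (−2.98, SE 0.31, limma adjusted p = 2.40e-08). The Nkx2-2 site (chr2:147188593-147190428) had 4.59, 6.00 and 6.21 against 50.4, 44.6 and 62.2 (−3.07, SE 0.31, limma adjusted p = 1.02e-08). All 3 had a peak in 3 of 3 SOX2-OFF libraries.

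At Klf2, a zinc-finger gene of naive pluripotency, the site 2798 bp from the start was among the strongest peaks of all SOX2-ON libraries. Its fold was 35.3, 46.5 and 42.8 in SOX2-ON and 6.96, 5.97 and 8.22 in CEpiLC, a log2 difference of 2.70 (SE 0.31, limma adjusted p = 5.17e-08). It held 3 SOX matches within 100 bp of the summit, 1 of them in the 121 bases shown, and was found in 3 of 3 naive ESC and 3 of 3 SOX2-OFF libraries. Other called sites near pluripotency genes went both ways. At Klf5 the site 211177 bp from the start was higher in SOX2-ON (log2 difference 1.47) and the one 40935 bp away was lower (−1.11). Sall4, Tbx3 and Tcf7l1 each had a site higher in SOX2-ON, by log2 differences of 1.85, 1.5 and 2.04 ( limma adjusted p = 6.32e-05, 6.49e-04 and 7.11e-06). A further Sall4 site, 13082 bp from the start, was lower in SOX2-ON (−1.26, limma adjusted p = 0.00326). At Sp8 the 3 sites 4293, 9683 and 10113 bp from the start were lower in SOX2-ON by log2 differences of −1.60, −1.51 and −1.70, and 2 sites 195320 and 186736 bp away were higher (1.17 and 0.93, limma adjusted p = 0.0132 and 0.0431).

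Further list genes, chosen after their values were seen, had large graded differences. At Prdm14, a repressor of differentiation in naive and germline cells, a site 52518 bp from the start had folds of 24, 19.8 and 29.2 in SOX2-ON and 4.68, 7.08 and 5.07 in CEpiLC (log2 difference 2.17, SE 0.31, limma adjusted p = 1.64e-06). Another Prdm14 site, 5051 bp from the start, was higher in CEpiLC (−0.93, limma adjusted p = 0.0286). At Dppa3, also a naive pluripotency gene, a site 28919 bp from the start was higher in CEpiLC. It had 5.73, 4.54 and 10.7 against 39.3, 47.8 and 31.6 (−2.52, SE 0.32, limma adjusted p = 3.02e-07). The nearer Dppa3 site, 1710 bp from the start, was not called (log2 difference 0.25, limma adjusted p = 0.606). Nes, which encodes the neural progenitor filament nestin, had 7.69, 11 and 18.1 against 32.4, 64.1 and 72.0 (−2.04, SE 0.32, limma adjusted p = 6.95e-06). Members of 1 list, and sites of 1 gene, moved in both directions.

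Over the gene lists, 0 of 24 tested Cdx and Hox sites were higher in SOX2-ON and 4 were higher in CEpiLC, among them Hoxa2, Hoxb4 and Hoxc4 beside Hoxb1, with a median log2 difference of −0.20. The share higher in CEpiLC is close to the 13.0% of all tested sites, so it is no result about these genes. Of 31 naive pluripotency sites 7 were higher in SOX2-ON and 6 in CEpiLC (median 0.16), and of 17 primitive streak and mesoderm sites 4 and 0 (median 0.02). Over all sites the median was −0.03. By the share of sites with a match, the letters CATTGT or CTTTGT stood out only at sites higher in SOX2-ON. They were found at 73.1% of the sites higher in SOX2-ON, 58.0% of those higher in CEpiLC and 55.6% of those not called. In the same order the longer form CCTTTGTT was at 13.5%, 13.3% and 8.56%, and the OCT-SOX letters at 7.33%, 7.91% and 3.52%. These sets were thus more frequent at called sites of both directions than at sites not called. Among 2875 sites with no SOX match 8.42% were higher in SOX2-ON and 13.1% higher in CEpiLC, and among 260 sites with 3 or more matches 40.0% and 5.77%, with a median log2 difference of 0.57. Of the sites higher in CEpiLC 79.3% had a peak in at least 2 SOX2-OFF libraries, against 41.8% of those higher in SOX2-ON and 45.4% of those not called.

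**Figure D4:**
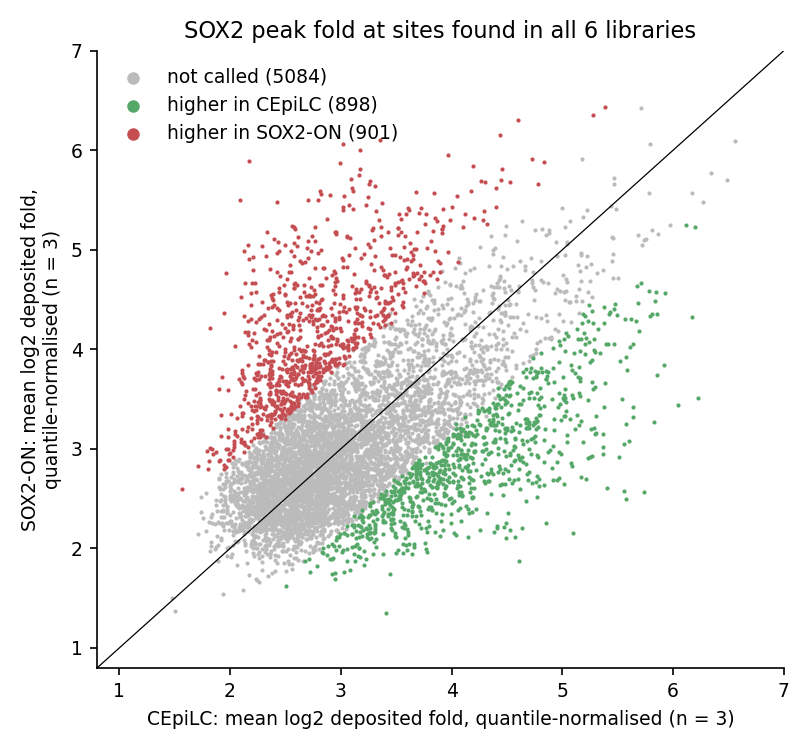
Mean quantile-normalised log2 fold in CEpiLC (horizontal axis) and SOX2-ON (vertical axis), n = 3 libraries each, at 6883 sites with a peak in all 6 full lists. Points are sites and the line marks equality; 901 sites are called higher in SOX2-ON and 898 higher in CEpiLC.

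Where all 6 libraries held a site, its summit moved little. Over the 2659 sites the strongest summits of 2 libraries lay 83.3 bp apart on average within a condition (median 34.2 bp) and 97.4 bp between conditions (median 37.8 bp), a difference of 14.1 bp (one-sided exact permutation test, p = 0.1, the smallest possible).

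The share of peaks on several chromosomes followed the cell line, most on chromosomes 6 and 11 in percentage points, a pattern singled out after the values were seen. Chromosome 6 held 8.57%, 8.09% and 8.45% of the 20000 strongest peaks in SOX2-ON and 5.30%, 5.38% and 5.09% in CEpiLC. Chromosome 11 held 5.41%, 5.75% and 5.68% against 9.73%, 9.49% and 10.1%. SOX2-OFF cells, of the same line as SOX2-ON, had means of 7.80% and 6.49%, and naive ESCs, of the wild-type line, 5.50% and 8.93%. Over the 6 SOX2-TetON and 6 wild-type SOX2 libraries the difference was 2.71 points for chromosome 6 and −3.30 for chromosome 11 (two-sided exact permutation test, p = 0.00216, the smallest possible, adjusted p = 0.0114 over 21 chromosomes). That test treated the libraries of a line as exchangeable, though they came from different conditions, and its p takes no account of this. Beta-catenin, LEF1, TCF7L1 and TCF7L2 libraries showed no overlap between the lines on either chromosome, as for beta-catenin with 6.02% to 6.19% in wild-type and 7.71% to 9.32% in SOX2-TetON cells on chromosome 6. Chromosomes 4 and 8 had the same p, with differences of −0.327 and 1.19 points, and chromosomes 5, 14 and 17 also had an adjusted p below 0.05 (0.0152, 0.0152 and 0.0260). Chromosome 8, which holds Klf2 and Nkd1, had 247 SOX2-ON-only and 95 CEpiLC-only sites. The class counts moved with the shares: 342 SOX2-ON-only and 94 CEpiLC-only sites on chromosome 6, and 119 and 304 on chromosome 11. Hoxb, Hes7, Meox1, Lhx1, Meis1, Tcf7 and the best-ranked CEpiLC-only site (Rbfox3) lie on chromosome 11. Hoxa, Nanog, Dppa3, Tcf7l1 and the best-ranked SOX2-ON-only site (Plxnd1) lie on chromosome 6.

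Without chromosomes 6 and 11, and with all others kept, 2841 SOX2-ON-only and 1781 CEpiLC-only sites were left, their SOX shares were 76.0% and 42.6%, and the SOX and promoter differences between libraries were 16.1 and −14.2 points. The median log2 difference of graded sites was 0.05 on chromosome 6 and −0.06 on chromosome 11, against −0.03 over all sites. The graded calls were uneven there: 69 higher in SOX2-ON and 44 higher in CEpiLC on chromosome 6, and 57 and 88 on chromosome 11. Over all sites they numbered 901 and 898.

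**Figure D5:**
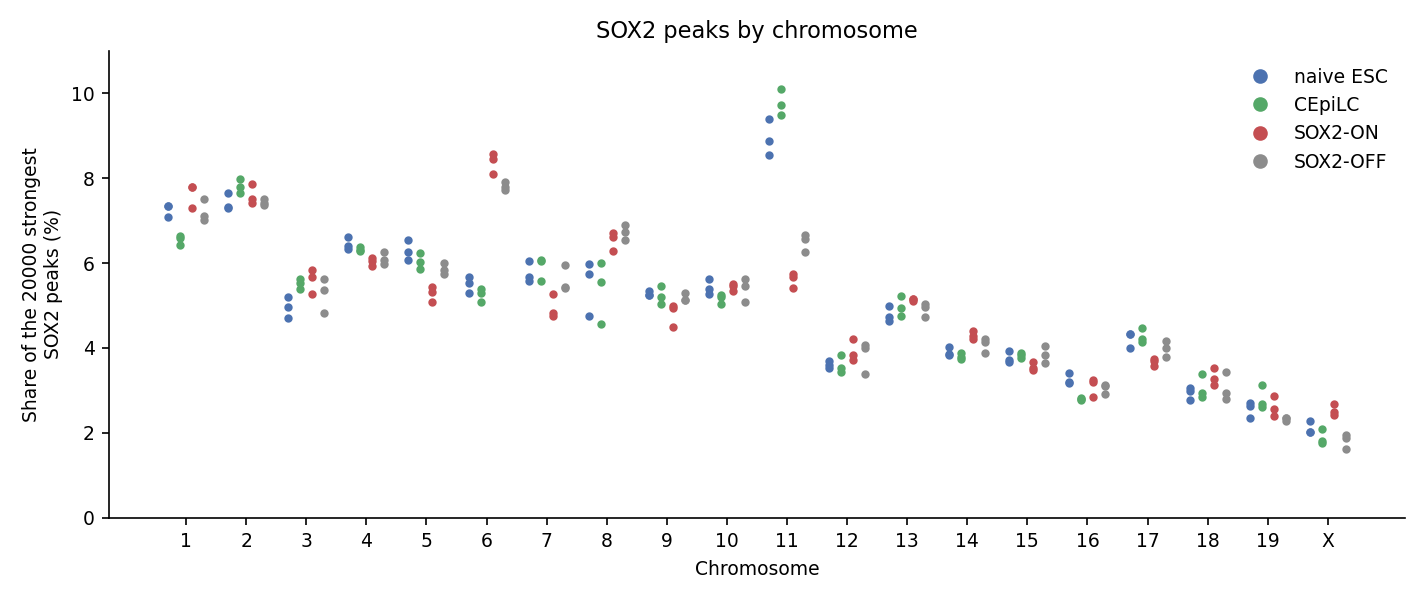
Share of the 20000 strongest SOX2 peaks on each chromosome, in percent (vertical axis), with 1 point per library and colours for the 4 conditions; chromosome Y is left out. SOX2-ON and SOX2-OFF libraries lie above wild-type libraries on chromosome 6 and below them on chromosome 11.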

How the data were processed

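SOX2 was immunoprecipitated from cells fixed with DSG and paraformaldehyde, and libraries were sequenced as 76 bp single-end reads. The authors aligned reads to mm10 with BWA in the nf-core ChIP-seq pipeline and called narrow peaks per library with MACS2. The deposited lists give for each peak a fold (ratio) over background, the −log10 p and −log10 q, and an integer score, which was not used. Replicates were called separately. The deposited lists hold no read counts, and which input library was set against each IP is not given in the sources used here.

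Lists were ranked by deposited −log10 p and cut to equal length, since total numbers of peaks differed. Overlapping peaks were merged into sites, which were assigned to the nearest protein-coding start (GENCODE M21). Sequence letters were searched on both strands of GRCm38.p6 within 100 bp of summits. Library values were compared with exact permutation tests, and log2 folds of sites with a peak in all 6 full lists with limma 3.58.1 in R 4.3.3 (quantile normalisation, Benjamini-Hochberg at 0.05), a script tested on simulated data. Other steps used Python 3.11.15, pandas 2.3.3 and numpy 2.4.6. Genes were named by a rule: up to 4 members per list with the most class-specific sites, a set of loci (Klf2, Meis3, T, Nodal, Tbx6, Cdx2, Hoxb8, Hoxb9, Nr5a2, Sox1, Esrrb, Tfcp2l1 and Sox2), the 3 best-ranked sites per direction absent from the full lists of the other condition, and the 3 graded sites per direction with the smallest adjusted p. The comparison, gene lists and loci were chosen with earlier results of these data known. Alternatives changed the list length, the ranking, the merging, the distances, the overlap, the normalisation and the replicates, and those without chromosomes 6 and 11 or centred by chromosome were chosen after seeing the data.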

Additional observations from a re-analysis of the deposited data

Results flagged for a closer look

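The 20000 strongest SOX2 peaks of the SOX2-OFF libraries, which stand outside the 6 libraries compared and come from Sox2-/- cells with doxycycline withdrawn, covered 38.2% of CEpiLC-only sites (mean of 3 libraries, SD 9.17) and 71.6% of the sites held by all 6 libraries (SD 8.05). They drew attention because a SOX2 immunoprecipitation signal was present where the labels give no active source of SOX2. The paper proposes residual SOX2 protein as the probable source, which was not tested here. The same libraries covered 4.53% of SOX2-ON-only sites (SD 1.24).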

How the results depend on the processing

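Of 132 alternative values, 66 were differences between libraries, which could reverse, and 66 were counts, which could not. All 66 differences kept their direction, though with 3 libraries a side none could pass 0.05. Their size could change, and the SOX share difference fell from 16.1 to 2.56 percentage points with all deposited peaks. Of the 66 counts 24 moved by more than 1.5 times: 13 of the counts of sites and 11 of the counts of list genes, where gene bodies replaced nearest starts. With the 2000 strongest peaks there were 636 SOX2-ON-only, 587 CEpiLC-only and 225 sites in all 6 libraries, with the 10000 strongest 1501 in all 6, and with all deposited peaks 8395 SOX2-ON-only sites and 6883 in all 6. CEpiLC-only sites absent from the full SOX2-ON lists numbered 591. Leaving out one replicate number in both conditions gave 4619 to 5118 SOX2-ON-only and 3674 to 4719 CEpiLC-only sites, because fewer libraries had to hold a site, and 568 to 820 graded sites higher in CEpiLC, the lowest without replicate 1, for which the cause was not tested. Those fits cannot give an exact p below 0.333. The beta-catenin index difference was 7.69 to 9.05 in them.

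Replicate numbers are shared between the conditions, but same-numbered libraries hardly deviated together (r across sites 0.098, 0.049 and 0.0085), and SOX2-ON replicate 3 did not correlate best with its own number. With the replicate block 929 graded sites were higher in SOX2-ON and 926 in CEpiLC. The depth of the libraries is unknown, so absence of a peak does not show absence of binding.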

Other observations

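In replicate 1 of the SOX2-OFF SOX2 libraries the strongest peak of the list, of fold 267, lay over an exon of Tfap2a, and exon peaks of Tcf7l1 and Tfap2c reached folds of 158 and 119. In replicate 2 the exons of Tfap2a had no peak, and those of Tcf7l1 and Tfap2c reached 7.18 and 5.28. In replicate 3 the values were 9.08 for Tfap2a, 5.36 for Tcf7l1 and 6.47 for Tfap2c. Exon peaks of Tfap2a were also higher in replicate 1 than in the other replicates of SOX2-ON (18 against 4.81 and 10.2) and of CEpiLC (21.5 against 7.74 and 10.5). The cause was not tested.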
